A study of Mus musculus with 6 samples.

Results

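The mouse gene tables of this series hold 35485 features, and 13597 of them were listed with an exon length of 0 and no annotated transcript. The 421 features described here are those of them whose names do not start with Gm, LOC or Hist and that had at least 100 unique gene reads, reads that map to a single place in the genome, in at least 1 library. They were therefore selected on measured reads, and their levels are given as a description. RPKM, a read count divided by gene length and library size, was above 0 for 0 of the 421. Unique gene reads per M reads of the library, scaled between libraries by TMM (a trimmed mean of the ratios of all features), are used instead and are called scaled reads below. Just inside the minimum stood 5530601H04Rik and D030028A08Rik, both with 100 reads in their highest library, and 2700046G09Rik, 4933407L21Rik and AI115009, each with 101. Just outside stood 2010015M23Rik, 3110053B16Rik and D9Wsu149, each with 98, and D330041H03Rik and Rpsa-ps10, each with 97.

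CHF mice had ischemic heart failure after permanent ligation of the left anterior descending coronary artery and an infarct of at least 30% of the left ventricle. Sham mice had the chest opened with no ligation. All were male mice, C57BL/6 in the labels and C57BL/6N in the study's methods, bought at 6 to 9 weeks of age and killed 8 weeks after the operation. No engineered allele is named. The methods also describe isoflurane anesthesia, buprenorphine at the operation, weekly access to sucrose solution, behavioral tests and killing with tribromoethanol. Left ventricle, hippocampus and prefrontal cortex each gave 1 CHF library from the pooled RNA of 3 mice and 1 sham library from that of 6 mice, so that a difference has no replicate check, no p-value is given, and intervals cover counting error only. The labels give the same pool number to the 3 CHF libraries and another to the 3 sham libraries, so that the tissues may come from the same mice. The 6 libraries held 15.7 to 25.9 M unique gene reads, and the 421 features took 0.866 to 1.31% of them. The median log2 ratio of CHF over sham across all measured features was -0.07 in left ventricle and within 0.01 of 0 in both brain tissues.

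Long noncoding RNAs are transcripts without a long open reading frame. Some build nuclear bodies, some act at the locus that makes them, and some are mainly carriers of small RNAs cut from their introns or exons, microRNAs or small nucleolar RNAs (snoRNAs). Imprinted noncoding genes are read from the copy of a single parent, and several are abundant in neurons. Pseudogenes are copies of genes that have lost their coding function and still can share reads with the parent gene.

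Current RefSeq annotation (GRCm38.p6) named 399 of the 421 features, 336 by the same symbol and 63 by a synonym at an overlapping position. Of the 421 features, 260 (61.8%) are now listed as long noncoding, 110 (26.1%) as pseudogenes, 23 as protein coding and 6 as other loci, and 22 found no match. A name ending in Rik, given to clones of the Riken cDNA project, belonged to 251. The genomic span, introns included, had a median of 6508 bases, and 160 features overlapped another feature of the tables. Uniquely mapped reads made up a median of 98.7% of the reads of the long noncoding features, against 48.0% for the pseudogenes.

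On the chromosomes that were searched, the RefSeq microRNA table placed 65 mature microRNAs inside the span, and on the strand, of 15 of the features. Not every chromosome was searched, and the 15 are not all the hosts. Others overlapped microRNA genes on their strand, such as E330013P06 with Mir143 and Mir145 and A930011O12Rik with Mir124a-1. The reads measured here are those of the long host transcript and not of the microRNA. The sequences below are shown because the hosts lead the differences between CHF and sham or between tissues, and because some of them share a seed, the bases 2 to 8 that pair with target mRNAs, which stand in capitals. They are credited to RefSeq (GRCm38.p6). The first is carried by 2610203C20Rik (current symbol Mir100hg, chr9:41581339-41592487).
miR-125b-5p: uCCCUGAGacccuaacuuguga
The next lie in the imprinted cluster of chromosome 12, miR-770-5p in Meg3, miR-370-3p in Rian and miR-409-3p and miR-410-3p in Mirg. The seed of miR-410-3p is also that of miR-344d-3p in A230057D06Rik, an imprinted feature of chromosome 7.
miR-770-5p: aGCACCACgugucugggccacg
miR-370-3p: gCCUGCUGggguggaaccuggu
miR-409-3p: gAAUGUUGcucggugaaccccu
miR-410-3p: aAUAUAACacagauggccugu
miR-344d-3p: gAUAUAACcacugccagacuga
AI854517 (Mir9-3hg) carries the brain microRNA miR-9-5p, and H19 carries miR-675-5p.
miR-9-5p: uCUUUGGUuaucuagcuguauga
miR-675-5p: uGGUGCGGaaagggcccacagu
Seeds shared within a host are shown for A330023F24Rik, with miR-29b-3p and miR-29c-3p, and for Dleu2, with miR-15a-5p and miR-16-5p. Others, not printed, lay within A230057D06Rik, among its miR-344 microRNAs, and within Mirg, for miR-453 and miR-496a-5p.
miR-29b-3p: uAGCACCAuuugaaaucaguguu
miR-29c-3p: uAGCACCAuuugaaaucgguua
miR-15a-5p: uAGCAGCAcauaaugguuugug
miR-16-5p: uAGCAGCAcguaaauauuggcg

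RefSeq promoters, 250 bases before and 50 after the listed start, were found for 233 of the features, with 232 distinct windows. The pair printed here belongs to the 2 named features with large and opposite ratios in left ventricle, Meg3 (plus strand, chr12:109540746-109541045) and D830015G02Rik (Mhrt, plus strand, chr14:54968537-54968836). The capitals in Meg3 mark the cAMP response element TGACGTCA, the letters bound by CREB family factors, which starts 57 bases before the listed start. These letters, the same on both strands, were in 6 of the 232 (2.59%) and in 507 of all 27025 promoters (1.88%). The promoter of Mir9-3hg also held them, and that of Mhrt did not. The capitals in Mhrt mark the first bases of the transcript. The GC box GGGCGG, searched on both strands, was in 53.9% of the 232 promoters, against 35.9% of all promoters. The 232 belong to features kept by their reads, while the 27025 were taken without regard to expression. The part of that choice in the shares was not tested.
Meg3: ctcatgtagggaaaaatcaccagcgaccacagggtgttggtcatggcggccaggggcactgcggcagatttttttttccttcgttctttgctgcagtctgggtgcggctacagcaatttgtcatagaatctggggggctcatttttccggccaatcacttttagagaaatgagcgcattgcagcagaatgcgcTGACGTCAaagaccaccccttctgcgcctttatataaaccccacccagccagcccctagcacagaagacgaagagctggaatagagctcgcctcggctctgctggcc
Mhrt: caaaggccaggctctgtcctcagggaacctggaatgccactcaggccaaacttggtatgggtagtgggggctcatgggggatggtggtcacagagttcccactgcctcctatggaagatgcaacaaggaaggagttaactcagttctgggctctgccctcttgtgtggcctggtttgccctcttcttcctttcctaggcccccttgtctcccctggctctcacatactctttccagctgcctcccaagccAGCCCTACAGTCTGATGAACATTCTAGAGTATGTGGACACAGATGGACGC

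The reads were concentrated in few features. When the mean scaled reads of the 421 were ranked, the first 12 held over 50% of their sum, and Meg3 alone held 19.1%. Meg3 took 1.91% of the reads of the 421 in CHF and 0.424% in sham left ventricle, against 21.3 to 29.2% in the brain libraries. In all 6 libraries 114 features reached 100 reads. A further 42 did so in the left ventricle libraries only, 126 in the 4 brain libraries but not in both left ventricle libraries, and 78 in both libraries of no tissue. Per kilobase of listed span, Neat1 had the highest mean of the 10 most read features at 217 scaled reads, Glns-ps1 had 103, Meg3 had 69.1, and Nnt, whose listed span of 73612 bases includes introns, had 4.78.

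**Figure D1:**
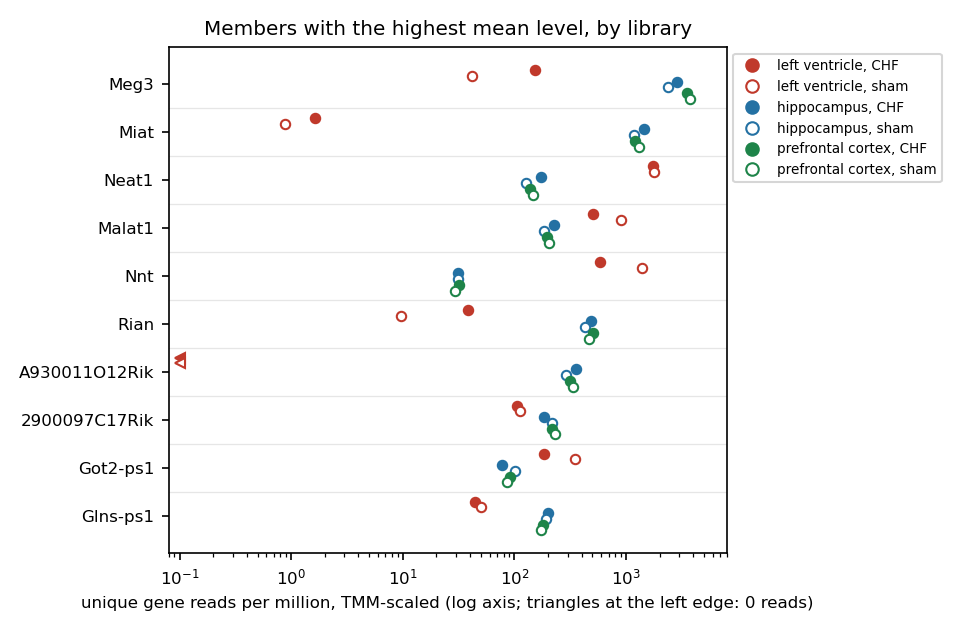
Scaled reads per M (log axis) of the 10 features with the highest mean, with filled points for CHF and open points for sham in left ventricle, hippocampus and prefrontal cortex. Meg3, Miat and Rian lie to the right in the brain libraries and Neat1, Malat1 and Nnt in the left ventricle libraries, and A930011O12Rik has no read in left ventricle.

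Whether these features differ between CHF and sham was asked in each tissue over features with at least 100 unique reads in both libraries, which are called measured, and a log2 ratio of 0.9, the study's threshold, was taken in either direction. In left ventricle, transcripts of the imprinted chromosome 12 cluster, the host of miR-125b, the snoRNA host Snhg18 and the immune receptor loci Igh and Tcrb were higher in CHF, and Mhrt, Nnt and a group of Riken clones were lower. Of 170 measured features, 10 were higher (5.88%, against 6.28% of all 10223 measured features) and 14 were lower (8.24%, against 4.23% of all). The log2 ratios ran from -2.48 to 2.06 with a median of -0.19. The counting interval lay wholly beyond the threshold for 7 of the 10 and 6 of the 14. Scaling by the total of unique reads in place of TMM added 0.30 to every log2 ratio in left ventricle. It gave 16 higher and 4 lower features, or 80.0% higher against 41.7% with TMM, and among all features 88.0% against 59.8%. All 10 higher features and, of the lower ones, D830015G02Rik, D930007P13Rik, 4930481A15Rik and Nnt kept their calls under it. DESeq2 size factors took AI506816 and Tpm3-rs7 off the higher side and added Malat1 to the lower one.

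**Figure D2:**
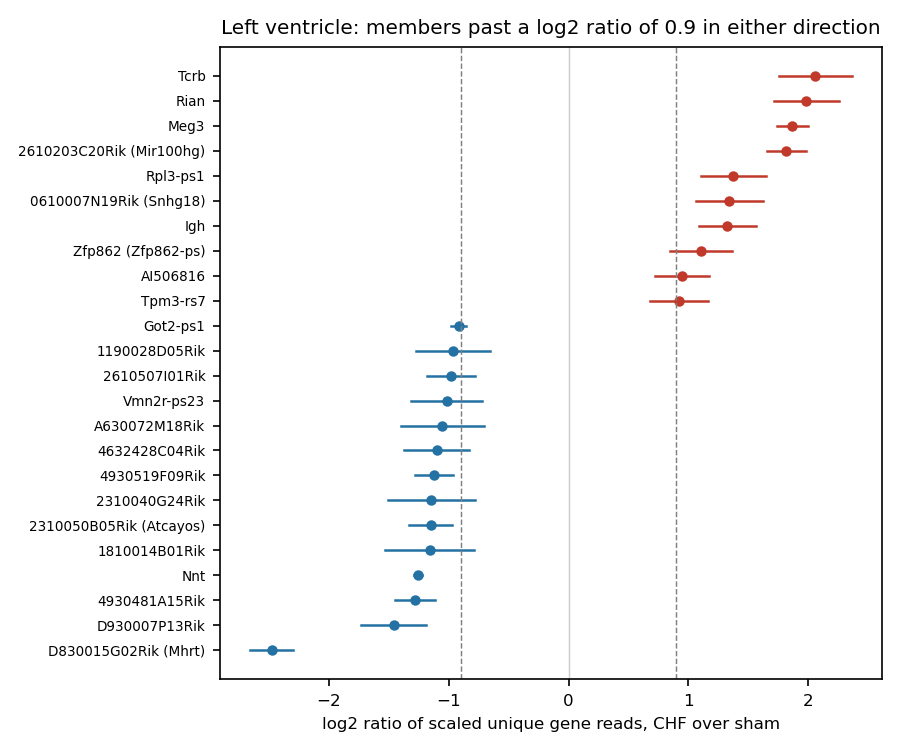
Log2 ratio of scaled unique gene reads, CHF over sham, of the 24 features past 0.9 in either direction in left ventricle, with 95% counting intervals as bars and the threshold as dashed lines. Tcrb, Rian, Meg3 and 2610203C20Rik stand highest with ratios from 1.82 to 2.06, and D830015G02Rik stands lowest at -2.48.

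Meg3, Rian and Mirg lie in this order on the plus strand of chromosome 12, from 109540996 to 109749458, in the Dlk1-Dio3 imprinted domain, and are expressed from the maternal copy. Meg3, a nuclear RNA, had 153 scaled reads in CHF and 42.0 in sham left ventricle, a 3.65-fold difference (log2 1.87, interval 1.74 to 2.00). Rian, an snoRNA host, had 38.1 in CHF and 9.62 in sham, a 3.95-fold difference (log2 1.98, interval 1.72 to 2.26). Mirg, the host of a large microRNA cluster, had 67 unique reads in CHF and 12 in sham, below the minimum, with a log2 ratio of 1.84. All 3 were thus higher in the CHF library, with log2 ratios from 1.84 to 1.98, of which that of Mirg rests on few reads. In hippocampus their log2 ratios were 0.29, 0.19 and 0.27, and in prefrontal cortex -0.07, 0.12 and 0.07. The protein-coding genes of the domain, which are read from the paternal copy and are no part of the 421, had few left ventricle reads, 3 in CHF and 1 in sham for Dlk1, 3 and 1 for Rtl1, and 17 and 1 for Dio3.

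H19, Airn and C230091D08Rik, the other listed imprinted features measured in left ventricle, did not share these ratios. Of 8 features on an imprinted list, 5 were measured in left ventricle. Of these 2 (Meg3 and Rian) were higher and 0 lower, against 6.28% and 4.23% of all measured features. H19, a maternally expressed RNA of muscle and fetal tissue, had 19.3 scaled reads in CHF and 27.3 in sham (log2 -0.51). Airn, which runs antisense to Igf2r and silences it in the mouse, had 64.2 and 89.1 (log2 -0.47). Igf2r covers 23.9% of its span on the other strand and had a log2 ratio of -0.41. Whether reads were assigned by strand is not stated, so that reads of Igf2r within the shared bases cannot be told apart from those of Airn. C230091D08Rik, now placed within Snhg14, the long host of the Prader-Willi region snoRNAs, had 46.1 and 61.6 (log2 -0.42).

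2610203C20Rik, which lies within the longer current span of Mir100hg and holds the hairpin of miR-125b-1, had 91.6 scaled reads in CHF and 26.0 in sham left ventricle, a 3.52-fold difference (log2 1.82, interval 1.65 to 1.98). Its brain levels lay between 9.004 and 10.04 in all 4 libraries, so that both left ventricle libraries stood above them. The host of the paralogous cluster, 2810055G20Rik (Mir99ahg), had 106 unique reads in CHF and 49 in sham (log2 0.47). Meg3, Mirg and H19, described above, also hold microRNAs but were not on the list of microRNA hosts used here. Of the 12 features on that list, 6 were measured in left ventricle. Of these 2 (2610203C20Rik and Rian) were higher and 0 lower, against 6.28% and 4.23% of all measured features. Mir22hg had 44.8 scaled reads in CHF and 42.2 in sham, Dleu2 had 14.9 and 17.2, and A330023F24Rik, the host of miR-29b and miR-29c, had 15.3 and 20.7, none of them past the threshold.

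**Figure D3:**
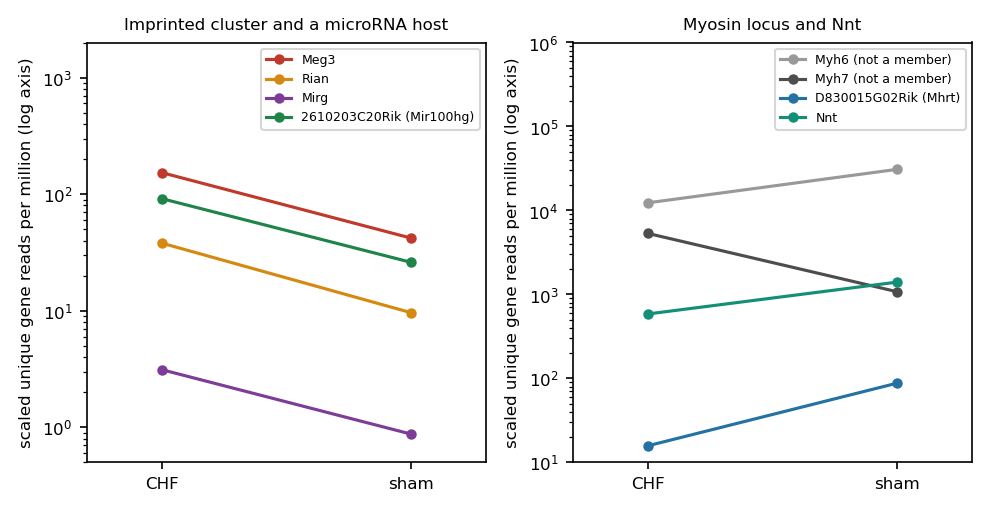
Scaled reads per M (log axes) in CHF and sham left ventricle, on the left for the chromosome 12 features and 2610203C20Rik, on the right for D830015G02Rik with Myh7 and Myh6 and for Nnt. The 4 features on the left are higher in CHF than in sham, Mirg with reads below the minimum, while D830015G02Rik and Myh7 slope in opposite directions.

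D830015G02Rik is Mhrt, a cardiac transcript read antisense to the gene of β-myosin heavy chain, Myh7, a gene of the fetal and failing mouse ventricle. Mhrt was the feature with the lowest ratio of the measured ones, with 15.8 scaled reads in CHF and 87.9 in sham left ventricle, a 5.58-fold difference (log2 -2.48, interval -2.66 to -2.30). The span of Myh7 covers 65.8% of it on the other strand. Myh7, which is no part of the 421, went the other way, with 5333 scaled reads in CHF and 1077 in sham (log2 2.31), and its neighbor Myh6, the adult ventricular myosin gene, had 12329 and 30886 (log2 -1.32). Only 44.3% of the reads on Mhrt were unique. Whether reads were assigned by strand is not stated, so that reads of Myh7 within the shared bases cannot be told apart from those of Mhrt.

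Nnt encodes the mitochondrial enzyme that makes NADPH from the proton gradient, and the C57BL/6J strain behind the reference genome carries a deletion in it that C57BL/6N mice, the substrain named in the study's methods, do not. Nnt had 586 scaled reads in CHF and 1403 in sham left ventricle (log2 -1.26, interval -1.29 to -1.23), against 29.4 to 32.2 in the brain libraries. Of 15 protein-coding features measured in left ventricle, 1 (Nnt) was lower (6.67%) and 0 were higher, against 4.23% and 6.28% of all measured features. Got2-ps1, a pseudogene of the mitochondrial aspartate aminotransferase, had 186 in CHF and 352 in sham (log2 -0.92), and its parent Got2 had a log2 ratio of -0.75.

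Riken clones made up 79 of the 170 measured features and 11 of the 14 lower ones, with 2 higher. Of all measured features 4.23% were lower and 6.28% higher. With library totals in place of TMM, 3 of these 11 (D830015G02Rik, D930007P13Rik and 4930481A15Rik) stayed lower. D930007P13Rik, on chromosome 15, had 8.44 scaled reads in CHF and 23.2 in sham left ventricle (log2 -1.46) and at most 5 unique reads in any brain library. 4930481A15Rik had 22.8 and 55.3 (log2 -1.28). 2310050B05Rik (Atcayos), on the other strand of Atcay and Nmrk2, had 20.3 and 45.1 (log2 -1.15), with 38.3% of its reads unique and with Nmrk2 listed at 0 reads in every library. With total gene reads in place of unique reads its log2 ratio was -0.61, not past the threshold. Atcay, which covers 28.2% of its span, had a log2 ratio of -0.69. Reads of Atcay and Nmrk2 within the shared bases cannot be told apart from those of 2310050B05Rik. 4930519F09Rik, now a transcribed pseudogene, had 26.2 and 56.9 (log2 -1.12). 1810014B01Rik, 2310040G24Rik, 4632428C04Rik, A630072M18Rik, 2610507I01Rik and 1190028D05Rik had log2 ratios from -1.16 to -0.96. With Mhrt these are the 11, and the 3 others are Nnt, Got2-ps1 and Vmn2r-ps23 (log2 -1.02).

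snoRNA hosts carry their snoRNAs in introns, and their spliced RNAs are short lived. Of 16 features on that list 5 were measured in left ventricle, with a median log2 ratio of 0.88. Of these 2 were higher (0610007N19Rik and Rian) and 0 lower, against 6.28% and 4.23% of all measured features. Rian is counted on the imprinted and microRNA host lists as well. 0610007N19Rik (Snhg18) had 25.0 scaled reads in CHF and 9.91 in sham (log2 1.34, interval 1.06 to 1.62). 9430008C03Rik (Snhg17) had 17.6 and 9.55 (log2 0.88) and Gas5, whose RNA accumulates in growth-arrested cells, had 27.7 and 17.8 (log2 0.64). C230091D08Rik was the single measured host with a ratio below 0. In hippocampus and prefrontal cortex 0 of the 12 and 0 of the 10 measured hosts passed the threshold in either direction. Of all measured features 0.0255% were higher and 0.196% lower in hippocampus, and 0.00883% and 0.0353% in prefrontal cortex, so that these counts do not set the hosts apart.

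The unrearranged immune receptor loci are listed as single features, from 667076 bases for Tcrb to 2751187 for Igh among those measured. Igh, the immunoglobulin heavy chain locus, had 33.6 scaled reads in CHF and 13.4 in sham left ventricle (log2 1.32). Tcrb, the T cell receptor beta locus, had 32.1 and 7.73 (log2 2.06). Igk, singled out after its values were seen, had 446 unique reads in CHF and 87 in sham, and Tcra had 112 and 47, both below the minimum in sham. The Tcrb span also holds trypsin genes, which were listed at 0 reads in every library, so that their reads cannot be told apart from those of Tcrb. AA414768, a feature on none of the gene lists and likewise singled out, had 112 unique reads in CHF and 2 in sham, below the minimum. Mx1, an interferon-induced gene with a disrupted copy in many laboratory strains, had 160 and 19, also below the minimum in sham. Oas1b had 214 and 103 (log2 0.41).

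The remaining higher features were 3 pseudogenes and 1 long noncoding RNA. Rpl3-ps1 had 26.4 scaled reads in CHF and 10.2 in sham left ventricle (log2 1.37), Zfp862, now listed as a transcribed pseudogene, had 25.8 and 12.03 (log2 1.10), and Tpm3-rs7 had 26.4 and 13.997 (log2 0.92). AI506816 had 29.9 and 15.5 (log2 0.94), with 41.2% of its reads unique.

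Cell markers moved in the same pair of libraries. All 5 fibroblast and matrix markers were past the threshold, with a summed level of 5256 scaled reads in CHF and 839 in sham left ventricle, as were 5 of 6 macrophage markers, with 521 and 198. The 5 cardiomyocyte markers summed to 27276 and 52994, with Myh6 (log2 -1.32) and Ryr2 (-1.14) past the threshold. Tnnt2 (-0.80), Myl2 (-0.67) and Actc1 (-0.28) were not past it. The 4 endothelial markers summed to 777 and 1065, with none past the threshold and log2 ratios from -0.59 (Cdh5) to 0.23 (Cldn5). The part of these cell types in the ratios of the 421 features was not tested. In pooled tissue fewer cells of a type cannot be told apart from less RNA per cell.

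Nuclear and architectural RNAs did not pass the threshold. Of 12 on this list 7 were measured in left ventricle, with ratios from -0.85 to 0.18. Of these 0 were higher and 0 lower, against 6.28% and 4.23% of all measured features. Neat1, the scaffold of paraspeckles, had 1757 scaled reads in CHF and 1800 in sham left ventricle (log2 -0.03). Malat1, a nuclear speckle RNA, had 506 and 911 (log2 -0.85, interval -0.88 to -0.81). 2900097C17Rik (Norad), which binds Pumilio proteins, had 106 and 112, and Tug1 had 74.3 and 65.5. 1700020I14Rik (Oip5os1, or Cyrano), which carries a site for miR-7, had 75.6 and 97.3. Neat1 is listed with a span of 3177 bases, which is the short form of the RNA.

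In hippocampus, 0 of 291 measured features were higher in CHF and 2 were lower (0.687%), against 0.0255% and 0.196% of all 11752 measured features. 4930547E14Rik, a long noncoding feature that overlaps the ephrin receptor gene Epha6 on the other strand, had 248 unique reads in CHF and 438 in sham, or 9.42 and 19.2 scaled reads (log2 -1.02). Epha6 itself had a log2 ratio of 0.44. A830082N09Rik had 103 and 174 unique reads (log2 -0.96). Neither counting interval lay wholly beyond the threshold. The median log2 ratio of the features was 0.05.

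In prefrontal cortex, 0 of 250 measured features were higher and 0 lower, against 0.00883% and 0.0353% of all 11321 measured features. Their ratios ran from -0.54 to 0.75 with a median of 0.02. Miat, a nuclear RNA of neurons, had 1446 scaled reads in CHF and 1170 in sham hippocampus (log2 0.30) and 1212 and 1319 in prefrontal cortex (log2 -0.12). A930011O12Rik, a host of the neuronal microRNA gene Mir124a-1, had log2 ratios of 0.30 and -0.08 in the same order, and AI854517 had -0.01 and -0.10. Of 11 features on a list of neuronal noncoding genes, 11 were measured in hippocampus and 10 in prefrontal cortex, and 0 passed the threshold in either. In hippocampus 0.0255% of all measured features were higher and 0.196% lower. The log2 ratios of the listed neuronal features ran from -0.74 (1700020I14Rik) to 0.51 (A330023F24Rik) in hippocampus, with 9 of 11 above 0. In prefrontal cortex they ran from -0.46 to 0.32, with 4 of 10 above 0.

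Between tissues, a feature was counted where the left ventricle libraries did not overlap the 4 brain libraries and the ratio of the means passed 0.9 on the log2 scale. Of the 421 features 111 were higher in left ventricle (26.4%, against 30.7% of all 14087 features with 100 reads in a library) and 169 were lower (40.1%, against 32.9% of all). Because the features entered by their reads in the same libraries, these shares are a description. The classes differed in balance, with 60 higher and 130 lower among the 260 long noncoding features and 36 higher and 23 lower among the 110 pseudogenes. The median log2 ratio was -0.92 for the long noncoding features and 0.33 for the pseudogenes.

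**Figure D4:**
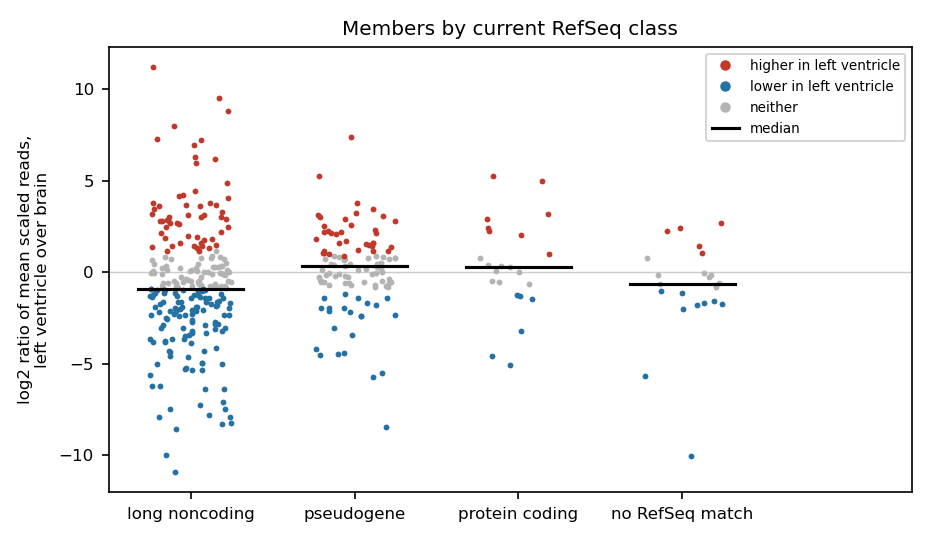
Log2 ratio of mean scaled reads, left ventricle over brain, by current RefSeq class, with red for features higher and blue for features lower in left ventricle, grey for neither and a bar for the median of the class. The long noncoding features spread from about 11 to -11 around a median of -0.92, and the pseudogenes have a median of 0.33. Features without a read on one side are counted in the median and not drawn.

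Among the features higher in left ventricle, C130080G10Rik on chromosome 2 had 143 scaled reads in CHF and 252 in sham left ventricle and 8 unique reads in the 4 brain libraries together. 3 features had no brain read at all. Mhrt was at least 1334-fold higher and D830013O20Rik at least 447-fold higher in left ventricle against a floor of 3 reads over the brain libraries, and 1010001N08Rik (Gata6os), opposite the cardiac transcription factor gene Gata6, at least 197-fold. E230013L22Rik had 681 and 346 unique reads in left ventricle and at most 4 in a brain library. Rab20, on the other strand over 32.4% of the span of E230013L22Rik, was also higher in left ventricle (log2 5.70), and reads of the shared bases cannot be told apart. H19 was 72.5-fold, Nnt 32.0-fold, Airn 16.7-fold, Oip5os1 13.5-fold and Neat1 12.1-fold higher in left ventricle. Igf2r, which overlaps Airn, was also higher there (log2 2.67), and reads of the shared bases cannot be told apart. Of 13 features on a list of cardiac noncoding genes 6 were higher and 5 lower in left ventricle, with Meg3 and Miat among the lower ones, against 30.7% and 32.9% of all features.

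Among the features lower in left ventricle, A930011O12Rik had 0 reads in both left ventricle libraries, against 355 and 288 scaled reads in CHF and sham hippocampus and 318 and 336 in prefrontal cortex, which puts it at least 3818-fold lower in left ventricle. 1500009C09Rik was at least 1461-fold lower and 2610017I09Rik (Pantr1), a neighbor of the neuronal transcription factor gene Pou3f3, at least 409-fold. AI854517, the miR-9-3 host, had 1 read in left ventricle in all and 62.5 to 83.3 scaled reads in the brain libraries. Miat had 35 and 12 unique reads in CHF and sham left ventricle and 22940 to 38073 in the brain libraries. Meg3 was 32.1-fold, Mirg 31.7-fold and Rian 19.8-fold lower in left ventricle. Bc1, a short RNA of dendrites, had 7 and 1 unique reads in left ventricle and 291 to 441 in the brain libraries. Gad1-ps, a pseudogene of the GABA-synthesizing enzyme gene, had 5 and 0 reads in left ventricle and 774 to 1088 in the brain libraries.

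Mir22hg stood apart as a host with nearly equal levels, between 40.3 and 44.8 scaled reads in the 6 libraries, and a log2 ratio of 0.06 between left ventricle and brain. Among features that are now known to encode small proteins, singled out after their values were seen, 1500011K16Rik (Mtln), whose micropeptide sits in mitochondria, ranged from 12.99 to 18.8 scaled reads over the 6 libraries. 5430416O09Rik (Spaar), whose micropeptide acts on amino acid sensing at lysosomes, had 8.02 and 11.3 in CHF and sham left ventricle and at most 1.35 in a brain library.

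Between the brain tissues, 13 of 339 features were higher in hippocampus (3.83%, against 3.38% of all 12498 features) and 15 were lower (4.42%, against 3.48% of all). 6330420H09Rik had 102 and 141 unique reads in CHF and sham hippocampus, against 0 and 1 in prefrontal cortex. 5830416P10Rik (Mirt1) had 331 and 233, against 58 and 51. 2810011L19Rik (Tunar), a neural RNA that also encodes a micropeptide, had 28.9 and 31.4 scaled reads in hippocampus, against 11.4 and 9.13 in prefrontal cortex (log2 1.56). Emx2os, opposite the hippocampal patterning gene Emx2, had a log2 ratio of 1.24. Lower in hippocampus were A830009L08Rik, with 19 and 13 unique reads against 147 and 206 in prefrontal cortex, 9130024F11Rik, with 275 and 196 against 740 and 950, and 2610100L16Rik, a second host of the microRNA of A930011O12Rik, at -0.96. Tcrb had 42 and 37 unique reads in hippocampus, against 264 and 385 in prefrontal cortex (log2 -3.26), and Igh had 172 and 145, against 305 and 410 (log2 -1.40). These loci were thus lower in both hippocampal libraries. Here too, reads of the trypsin genes within the Tcrb span cannot be told apart from those of Tcrb. The macrophage markers summed to 220 and 223 scaled reads in CHF and sham hippocampus, against 207 and 189 in prefrontal cortex, and the 4 meningeal markers to 41.1 and 28.5, against 57.1 and 42.8. Lymphocyte markers were not among the lists, and the part of these cells was not tested.

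Of the features named for a parent gene, 62 had that gene in the tables, and for 34 both were measured in left ventricle. Across these 34 pairs the log2 ratios of CHF over sham of pseudogene and parent had a Pearson r of 0.86 and a Spearman rho of 0.82, and across the 61 pairs with reads in both tissues those of left ventricle over brain had 0.87 and 0.79. The pairs are genes of the same libraries and not independent replicates, and both values of a pair can hold the reads of the other. Rpl3-ps1 had 1.37 and Rpl3, a ribosomal protein gene, had 1.15. Tpm3-rs7 had 0.92 and Tpm3, a tropomyosin gene, had 0.53. Uniquely mapped reads made up 8.29% of the reads of Rpl3-ps1 and 22.5% of those of Tpm3-rs7.

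**Figure D5:**
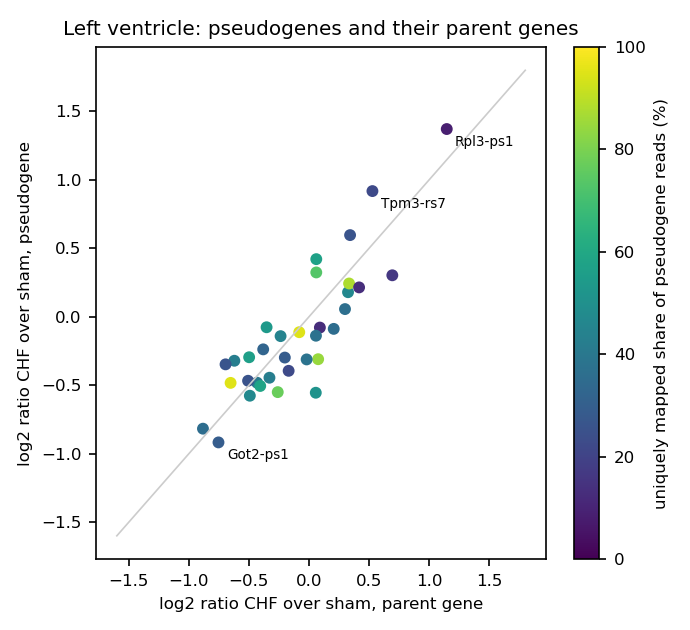
Log2 ratio of CHF over sham in left ventricle of 34 pseudogenes (vertical axis) against that of the parent gene (horizontal axis), colored by the uniquely mapped share of the reads of the pseudogene. The points follow the diagonal, and Rpl3-ps1, Tpm3-rs7 and Got2-ps1 are the pseudogenes whose own ratio is past 0.9 in either direction.

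The 21 features named as antisense, opposite-strand or overlapping transcripts of another gene had 10 measured in left ventricle. Of these 0 were higher and 1 (2310050B05Rik) was lower in CHF, against 6.28% and 4.23% of all measured features. The call of 2310050B05Rik was not kept with total gene reads. Between tissues 7 of the 21 were higher and 11 lower in left ventricle, against 30.7% and 32.9% of all features. 1500017E21Rik (Hectd2os) had 746 and 345 unique reads in CHF and sham left ventricle and at most 11 in a brain library. Dlx6as1 (Dlx6os1) and Sox2ot, both of neural development, had 1 and 1 and 1 and 4 unique reads in left ventricle, against 170 to 266 and 194 to 369 in the brain libraries. Dlx6, on the other strand of Dlx6as1, and Sox2, on the same strand as Sox2ot and within its span, were listed at 0 reads in every library, so that reads of these genes cannot be told apart from those of the 2 features.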

How the data were processed

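The authors depleted ribosomal RNA, sequenced what remained and aligned it in CLC Genomics Workbench (version not given in the sources used here) to GRCm38.p1, the build in the submitters' processing notes. The deposited values are whole-number counts of unique and total gene reads and RPKM for 35485 features. Whether the authors' counting used strand is not stated. Tables of the authors' comparisons hold RPKM again and log2 ratios and were not used.

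The 421 features, gene lists and the rule for named features (the 10 with the highest mean, those past the threshold, the leading ones of each list, the largest tissue ratios and those nearest the read minimum) were chosen with earlier results of these data known. Effective library sizes came from TMM in edgeR 4.0.16 (R 4.3.3) over all features. Intervals are 95% Clopper-Pearson intervals of the share of reads from CHF, from 15.7 to 25.9 M unique reads per library. Identities came from RefSeq (GRCm38.p6), and strand from GENCODE for 382 features. Alternatives were DESeq2 1.42.0 size factors, library totals, TMM within a tissue, total gene reads, read minimums of 50 and 200 or 100 in either library, thresholds of 0.8 and 1.0, member minimums of 50 and 200, features without overlap, CHF or sham libraries alone, and tissues paired by pool number (added after seeing the data). Simulated counts held counting error only, with no difference between mice or pools. Changes were set only in features with at least 200 expected reads in each library. With 100 features changed by each size, the left ventricle call recovered 81 of 100 at log2 1 and 98 of 100 at log2 2. There were 0 false calls among unchanged features, which gives no false-call rate for real pools, since these also differ by their mice. Scripts used Python 3.11.15, numpy 2.4.6, pandas 2.3.3, scipy 1.17.1 and matplotlib 3.10.9.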

Additional observations from a re-analysis of the deposited data

How the results depend on the processing

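The counts of higher and lower features in prefrontal cortex were 0 under every alternative run. In left ventricle, library totals gave 16 higher and 4 lower features, a minimum of 200 reads in both libraries gave 3 and 7, a minimum of 100 reads in either library gave 27 and 25, and features that overlap no other feature gave 2 and 9. A minimum of 50 reads in both gave 28 lower. In hippocampus the lower count was 1 with total gene reads, with 200 reads in both, at a threshold of 1.0, with a member minimum of 200 and without overlapping features, and the higher count was 1 with 100 reads in either library and at a threshold of 0.8. For left ventricle against brain, a member minimum of 200 gave 62 higher and the features without overlap gave 95 lower. For hippocampus against prefrontal cortex the features without overlap gave 7 higher and 8 lower. Part of these shifts follows from the smaller or larger number of features counted, and the cause was not tested further. The other 96 counts stayed within 1.5 times the first value. Of 492 ratios of named features under other scalings or with total gene reads, 442 stayed inside the counting interval, 50 moved outside it, and 0 of those past the threshold changed sign. TMM within a tissue cannot be used between tissues and was not run there. CHF against sham cannot be paired, since each tissue has 1 library of each. For the tissue comparisons, the pool number as replicate block, an alternative chosen after seeing the data, gave 110 higher and 169 lower features in left ventricle against brain, and 13 higher and 15 lower in hippocampus against prefrontal cortex. The depth limits features near 100 reads, where the counting interval spans about 1 unit of log2.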
